A study of Mus musculus with 2 samples.

Results

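Carbonic anhydrases are zinc enzymes that turn carbon dioxide and water into bicarbonate and a proton, and back. In the gut they supply bicarbonate and protons to the exchangers that absorb sodium chloride and keep the pH at the epithelial surface, and the mouse family spans cytosolic, mitochondrial, secreted and membrane-bound forms. The colonic epithelium is known for its high content of the cytosolic enzymes. Expression of 10 members of the family (Car1, Car2, Car3, Car4, Car7, Car8, Car9, Car12, Car13 and Car14) was taken here as every probe set whose platform annotation gives exactly 1 of these symbols. This gave 22 probe sets of 45101 on the array, and each gene was represented by its brightest probe set over both tissues, so that the 10 genes stand among 18194 named ones.

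The 2 samples were a colon biopsy and a small intestine biopsy of wild-type adult mice, and the total RNA of each was measured on 1 Affymetrix Mouse Genome 430 2.0 array. Strain, part of the organ and number of animals per array are not in the labels, which mention no treatment. For the sequenced samples of the study the methods name C57B6 mice, with the jejunum and the distal colon as tissues, and it is not stated that the arrays used the same material. Values are normalized log2 expression values, and differences are the colon minus the small intestine. Each tissue was measured once, so that nothing could be checked between replicates or tested, and a gene was called at a difference of at least 3-fold after values below a background level of 5 were raised to that level. Both tissues are mixtures of cells, in which more cells of a type and more RNA per cell cannot be told apart.

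Of the 10 genes, 5 were called higher in the colon, against 0 in the small intestine. The 5 genes were Car1, Car2, Car12, Car8 and Car4, in the order of their differences. Over all 18194 named genes, 3.33% were called in favour of the colon and 3.46% in favour of the small intestine, and among the 11016 genes that exceeded background in at least 1 tissue these shares were 5.49% for the colon and 5.71% for the small intestine. The median difference of the 10 genes was 1.52 on the log2 scale, beside 0 over all named genes. It was 0.64 when each gene was taken as the median over its probe sets. Among genes above background in at least 1 tissue, the median was 2.22 for the carbonic anhydrases, beside 0.06 over all such genes. The split between the tissues depended on how the arrays were scaled, mostly through the spike-in scaling. As deposited, 605 genes favoured the colon and 629 the small intestine. Quantile normalization gave 558 for the colon and 659 for the small intestine, and centring on the median gave 585 and 643. Centring on hybridization spike-ins gave 446 for the colon and 837 for the small intestine. It left the same 5 carbonic anhydrase genes past 3-fold in the colon and added Car13 in the small intestine. This centring rests on the mean of all 18 control probe sets. The 4 for BioC, which read the same control transcript, were higher on the colon array by a median of 1.42, against -0.06 for the other 14.

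**Figure D1:**
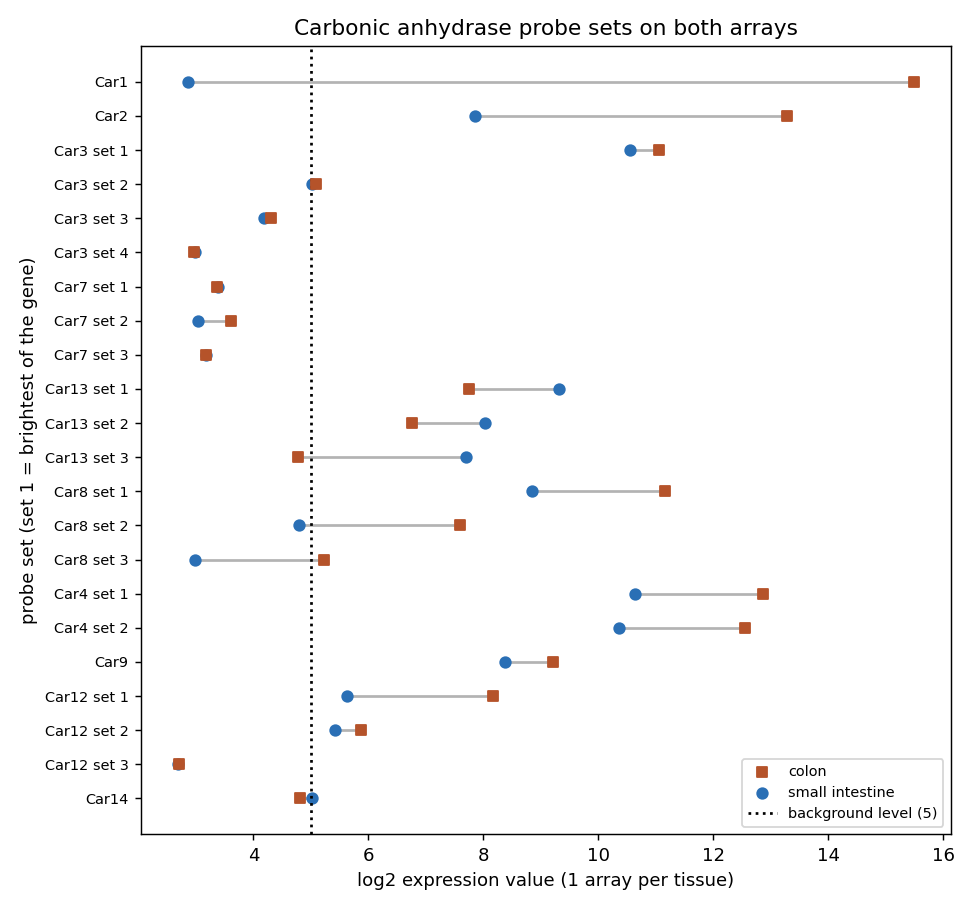
Log2 expression of all 22 carbonic anhydrase probe sets (rows) on the colon array (squares) and the small intestine array (circles), and a dotted line at the background level of 5. Car1 spans the widest gap, with 15.49 in the colon, against 2.86 in the small intestine, and the 3 probe sets of Car13 are the ones above background that lie clearly higher in the small intestine.

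Car1, a cytosolic enzyme best known from red blood cells and the colonic epithelium, had 15.49 in the colon, against 2.86 in the small intestine. Its single probe set was thus bright in the colon and below background in the small intestine. The fold was at least 1433 against the background level. This was the largest floored difference in favour of the colon among all 18194 genes. Car2, the fast cytosolic enzyme found in most transporting epithelia, had 13.29 in the colon, against 7.85 in the small intestine. Unlike Car1 it was above background in both tissues, so that its 43.3-fold difference is measured on both sides. It ranked 30 of 18194 by the difference in favour of the colon.

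Red blood cells also contain Car1 and Car2. Of 12 red blood cell genes 6 were measured, and 1 of these lay above background on each array. The exception was the globin gene Hba-a2, with 7.22 in the colon, against 6.09 in the small intestine. The haem enzyme Alas2 had 2.00 in the colon, against 2.04 in the small intestine, and the erythroid factor Klf1 had 2.70 in the colon, against 2.72 in the small intestine, so that both were below background in both tissues. The summed level of the list was 7.60 in the colon, against 6.87 in the small intestine on the log2 scale.

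The other cytosolic enzymes did not share this pattern. Car13, a cytosolic form known from the gut and other organs, had 7.75 in the colon, against 9.31 in the small intestine. It was the 1 gene of the 10 with a sizeable difference in favour of the small intestine, and at 2.95-fold it lay just under the 3-fold rule, while the called gene nearest to the rule on the inside was Car4 at 4.67-fold in favour of the colon. Its other probe sets had 6.75 in the colon, against 8.03 in the small intestine (2.43-fold), and 4.77 in the colon, against 7.69 in the small intestine (at least 6.46-fold). All 3 therefore lay higher in the small intestine, and 1 of them passed 3-fold. The brightest passed it too after quantile normalization (-1.62) or centring on hybridization spike-ins (-1.81).

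Car3, an enzyme of low activity that is abundant in fat cells and skeletal muscle, had 11.05 in the colon, against 10.55 in the small intestine. The difference of 0.51 (1.42-fold) was below the pooled SD of 0.54 on the log2 scale between probe sets of a gene, taken over 3535 genes with several probe sets above background. Its other 3 probe sets were far dimmer, between 2.97 and 5.09 in the colon and between 2.99 and 5.02 in the small intestine, so its level rests on 1 probe set. Fat cell genes were present in both tissues, with the adipokine gene Adipoq at 6.97 in the colon, against 6.41 in the small intestine. Of the 6 fat cell genes measured, 4 lay above background on each array, with a summed level of 12.72 in the colon, against 11.78 in the small intestine. The list went both ways past 3-fold, as the lipase gene Lpl was 4.99-fold higher in the colon, whereas the lipid droplet gene Cidec had 4.69 in the colon, against 8.23 in the small intestine (at least 9.35-fold in favour of the small intestine). The muscle kinase gene Ckm had 5.72 in the colon, against 5.37 in the small intestine, and the fast myosins Myh1, Myh2 and Myh4 lay below background in both. Of the 10 skeletal muscle genes, 2 were above background in the colon, against 3 in the small intestine, with summed levels of 7.43 in the colon, against 7.72 in the small intestine. Their part in the signal of Car3 was not tested.

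Car7, a cytosolic enzyme known from the brain, was at background. Its 3 probe sets lay between 3.17 and 3.61 in the colon and between 3.04 and 3.38 in the small intestine. No fold is given for it, as both tissues were under the background level of 5.

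Car8 is a related protein that lacks the catalytic activity and is best known from Purkinje neurons, where it binds the inositol trisphosphate receptor. It had 11.15 in the colon, against 8.84 in the small intestine, which is 4.96-fold. The second probe set had 7.58 in the colon, against 4.80 in the small intestine (a floored difference of 2.58), and the third had 5.23 in the colon, against 2.99 in the small intestine (at least 1.17-fold). Its 3 probe sets thus pointed the same way, 2 of them past 3-fold. Only the brightest was above background in both tissues, so that the other 2 give lower bounds. Of 9 genes of neurons, glia and pacemaker cells, 4 were past 3-fold in favour of the colon, which became 1 with the median over probe sets, and the summed level was 11.06 in the colon, against 8.11 in the small intestine. Much of that sum was the pacemaker cell channel gene Ano1, with 10.49 in the colon, against 6.06 in the small intestine, while the glial genes Gfap and Sox10 and the neuronal gene Uchl1 were below background in both. Their part in the difference of Car8 was not tested.

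**Figure D2:**
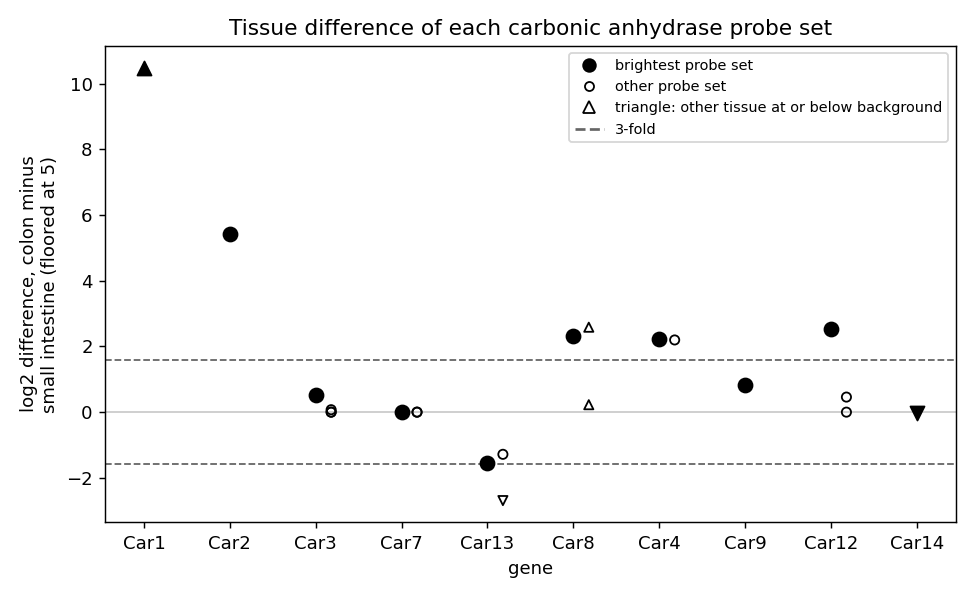
Floored log2 difference, colon minus small intestine, of every carbonic anhydrase probe set, with filled symbols for the brightest probe set of a gene and open ones for the others. Triangles mark lower bounds, where the other tissue lay at or below background, and dashed lines mark 3-fold. Car1 reaches 10.49 and Car2 5.44, Car8, Car4 and Car12 lie between 2.22 and 2.54, and Car13 lies at -1.56.

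Among the membrane-bound enzymes, 2 of 4 were called higher in the colon. Car4, which is held by a lipid anchor at the outer face of the apical membrane, had 12.86 in the colon, against 10.64 in the small intestine. The second probe set had 12.55 in the colon, against 10.35 in the small intestine. The differences of 4.67-fold and 4.58-fold were nearly equal, and Car4 was well above background in both tissues.

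Car12, a transmembrane enzyme with its active site outside the cell, had 8.17 in the colon, against 5.63 in the small intestine (5.83-fold). Its probe sets were not alike. The second had 5.88 in the colon, against 5.42 in the small intestine (1.37-fold), and the third had 2.71 in the colon, against 2.69 in the small intestine, both below background. Taken as the median over its probe sets, the difference of Car12 was 0.46 and under 3-fold.

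Car9, a transmembrane enzyme and a well-known target of hypoxia-inducible factor, had 9.21 in the colon, against 8.38 in the small intestine. At 1.77-fold it was bright in both tissues and not called. Car14, a transmembrane form known from kidney and brain, had 4.81 in the colon, against 5.01 in the small intestine, so that it stood at the background level in both.

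RefSeq promoter windows of assembly GRCm38.p6, from 250 bases before to 50 bases after the annotated start, were found for 5 of the 10 genes, namely Car4, Car7, Car9, Car12 and Car14. Car1, Car2, Car3, Car8 and Car13 had no window. They were searched on both strands for the core of the hypoxia response element (ACGTG or GCGTG, which read CACGT or CACGC on the other strand) and for a TATA box (TATAAA, or TTTATA on the other strand). The windows of the membrane-bound enzymes above background in both tissues are printed 5′ to 3′, to set Car4 and Car12, which were called, beside Car9, which was not. Capitals mark the matches. The windows are chr11:84957504-84957803 for Car4, chr9:66713436-66713735 for Car12 and chr4:43506776-43507075 for Car9, all on the plus strand.
Car4: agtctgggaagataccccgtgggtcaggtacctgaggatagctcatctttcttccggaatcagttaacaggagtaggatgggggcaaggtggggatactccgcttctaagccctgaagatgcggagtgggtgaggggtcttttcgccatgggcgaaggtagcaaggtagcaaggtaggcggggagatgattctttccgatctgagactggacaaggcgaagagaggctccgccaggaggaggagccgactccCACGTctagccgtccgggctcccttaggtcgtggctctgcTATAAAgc
Car12: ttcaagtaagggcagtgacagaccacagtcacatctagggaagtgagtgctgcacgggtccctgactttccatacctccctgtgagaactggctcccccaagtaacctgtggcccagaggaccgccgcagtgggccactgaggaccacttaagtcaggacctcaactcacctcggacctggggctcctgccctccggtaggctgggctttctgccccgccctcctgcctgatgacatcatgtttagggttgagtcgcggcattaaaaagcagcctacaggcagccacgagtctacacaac
Car9: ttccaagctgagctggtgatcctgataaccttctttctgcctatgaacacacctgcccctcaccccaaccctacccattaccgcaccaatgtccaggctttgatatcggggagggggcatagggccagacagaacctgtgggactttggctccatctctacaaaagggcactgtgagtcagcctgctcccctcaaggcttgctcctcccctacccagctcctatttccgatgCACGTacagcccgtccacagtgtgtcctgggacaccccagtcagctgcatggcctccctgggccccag

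The window of Car9 held 1 hypoxia core, on the minus strand with its first printed base 18 bases before the start. The window of Car4 held the same core at position 3 and a TATAAA match at position 43, counted with the annotated start as 1. Both thus lie downstream of that start. The window of Car12 held none of these motifs. Among windows not printed, that of Car14, a gene at background, held ACGTG on the minus strand, starting 7 bases before the start. Some windows of Car7, also at background, held GCGTG. Over all 32851 windows, 19.6% held ACGTG, 32.4% held GCGTG and 13.6% held TATAAA, so each is common. A match is a description of the letters in the window, and no binding was measured.

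Car13, Car1, Car3 and Car2 lie next to each other in this order on 1 chromosome, with 3 other RefSeq entries between the first and the last and no other protein-coding gene. The 4 neighbours differed widely, from -1.56 for Car13 to 10.49 for Car1, with 0.51 for Car3 and 5.44 for Car2. The named genes just outside the cluster were not called. On the side of Car13, E2f5, a cell cycle transcription factor, had 10.34 in the colon, against 8.98 in the small intestine (2.57-fold). The gene nearest to Car13 was Rbis, a ribosome assembly factor, with 12.31 in the colon, against 11.76 in the small intestine. The next after E2f5 was Lrrcc1, a centrosomal protein, with 6.09 in the colon, against 4.48 in the small intestine (at least 2.13-fold). Without a floor the difference of Lrrcc1 was 1.61, just past 3-fold. On the side of Car2, A930001A20Rik and Sirpb1a were below background in both tissues, and Ythdf3, a reader of methylated RNA, had 9.57 in the colon, against 9.66 in the small intestine. Neither flank thus came near the differences of Car1 and Car2.

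The family members outside the 10 genes were at background. Car5a and Car5b, the mitochondrial forms, Car6, the secreted form, Car10 and Car11, which lack activity, and Car15, a lipid-anchored form, had 3.02 to 4.19 in the colon and 3.03 to 4.20 in the small intestine. Of the receptor phosphatases that carry a carbonic anhydrase-like domain, Ptprg had 7.42 in the colon, against 7.60 in the small intestine, and Ptprz1 had 6.18 in the colon, against 4.36 in the small intestine (at least 2.27-fold). None of these 8 genes was called, but Ptprz1 passed the rule at a background level of 4, and without a floor its difference was 1.83.

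The lists of bicarbonate and chloride exchange and of proton export, which also hold related genes, had members in both directions. Of 19 measured genes of bicarbonate and chloride exchange, 2 favoured the colon and 2 the small intestine, and the median was 0. Slc26a3, the apical chloride-bicarbonate exchanger, had 13.85 in the colon, against 12.21 in the small intestine (3.12-fold, and under the rule after centring on hybridization spike-ins), and the sulphate transporter Slc26a2 was 4.22-fold higher in the colon. Slc26a6, another anion exchanger, had 2.06 in the colon, against 11.51 in the small intestine, a difference of at least 91.4-fold in favour of the small intestine, and Clca4a, a member of a family of similar genes, was 4.15-fold higher there. Of 14 genes of proton export, the colonic proton-potassium pump gene Atp12a had 10.77 in the colon, against 2.89 in the small intestine, which is at least 54.5-fold, and Slc9a3r1, a scaffold of the sodium-proton exchanger, was 5.38-fold higher in the small intestine. The exchanger Slc9a3 itself had 10.28 in the colon, against 10.15 in the small intestine.

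**Figure D3:**
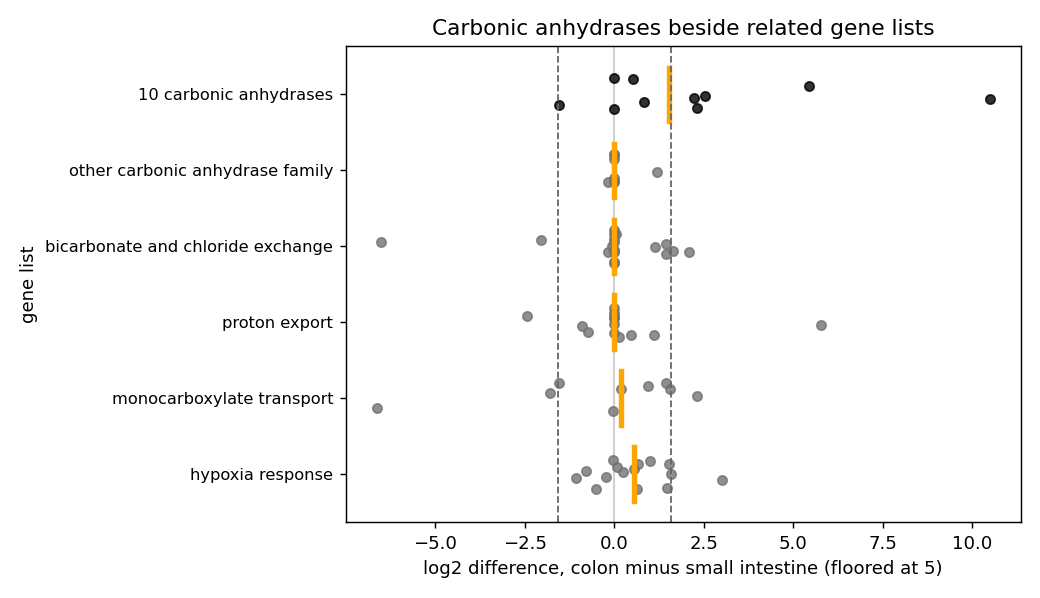
Floored log2 difference, colon minus small intestine, of each gene (points) in the 10 carbonic anhydrases and 5 related lists, with list medians as orange bars and 3-fold as dashed lines. The carbonic anhydrases have a median of 1.52, and the other lists have medians between 0 and 0.54. Genes below background in both tissues count as 0. Among genes above background in at least 1 tissue, the median is 2.22 for the carbonic anhydrases and 0.06 to 0.60 for the other lists.

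The 2 arrays also differed in control probe sets, in ways that touch the called genes. With 1 array per tissue, it cannot be told which of the 2 arrays was the unusual one. Probe sets at the 5′ end of poly-A control transcripts, which are added before labelling, were higher on the colon array by a median of 2.30 (0.68 to 2.73, 8 probe sets). Those at the 3′ end differed by a median of -0.26. Each control transcript is read by more than 1 probe set, so the 8 are not independent. The 5′ probe set of Gapdh, a glycolytic gene used by most cells, had 10.58 in the colon, against 9.31 in the small intestine, while its 3′ probe set had 12.90 in the colon, against 12.92 in the small intestine. The 5′ probe set of the actin gene, by contrast, had 8.72 on both arrays. The differences of Car4, Car8 and Car12 were of the same size as those of the 5′ controls, and those of Car1 and Car2 were larger than any of them. Where the carbonic anhydrase probe sets lie in their transcripts is not stated in the files or labels, and the part of the 5′ difference in these values was not tested. Of the hybridization controls, the 4 BioC probe sets were higher on the colon array by a median of 1.42. These 4 read the same control transcript. The other 14 differed by a median of -0.06.

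**Figure D4:**
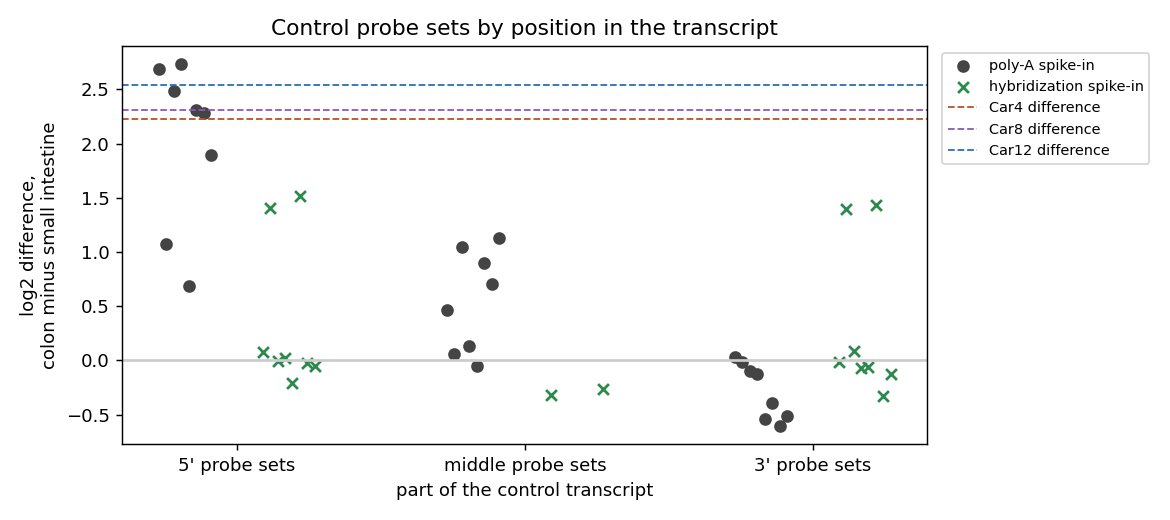
Log2 difference, colon minus small intestine, of poly-A spike-in (circles) and hybridization spike-in (crosses) probe sets at the 5′ end, the middle and the 3′ end of control transcripts. Dashed lines give the differences of Car4, Car8 and Car12 (2.22, 2.31 and 2.54), which lie among the poly-A values of the 5′ end and above those of the 3′ end.

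Markers of other tissues also differed. Of 10 exocrine pancreas genes, 9 were called higher in the colon, with all 10 above background there and 2 in the small intestine. The summed level was 15.79 in the colon, against 12.76 in the small intestine. Most of the small intestine sum was Clps, the gene not called, with 13.53 in the colon, against 12.68 in the small intestine (1.81-fold). Smooth muscle genes were called in 5 of 7 cases and goblet cell genes in 4 of 8, all in favour of the colon. Stomach genes, of interest because Car9 is abundant in the gastric epithelium, had 1 of 9 above background in the colon, against 2 in the small intestine, with summed levels of 7.43 in the colon, against 7.95 in the small intestine. The part of these cells in the carbonic anhydrase values was not tested. Epithelial genes were above background in 8 of 8 cases on both arrays, with summed levels of 16.29 in the colon, against 16.46 in the small intestine, and 1 was called, the brush border gene Vil1, with 12.51 in the colon, against 14.11 in the small intestine (3.02-fold in favour of the small intestine). Of the genes of surface colonocytes, 4 of 8 were higher in the colon, such as the water channel gene Aqp8 (at least 67.2-fold).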

How the data were processed

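Total RNA was isolated with a Qiagen RNeasy kit, per the labels, and hybridised to 1 Affymetrix Mouse Genome 430 2.0 array per tissue. The authors deposited log2 values of normalized expression for each probe set, from 0.73 to 16.97, with a median of 4.01 for the colon and 3.99 for the small intestine. The processing notes of the submitters name GCRMA and the methods of the study RMA, with no version. GCRMA can widen folds against dim values, which bears on every fold with 1 dim side. The authors' scaling was kept.

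Probe sets were named through the platform annotation. Of 45101, 34958 had 1 gene and 932 several, none of which named a carbonic anhydrase of the set. For each gene the probe set of highest mean level was used. Values below 5 were raised to 5 before differences were taken, and a fold against a tissue at or below 5 is a lower bound. The 3-fold cutoff is that of the study, which applied it to its sequencing values and chose it because of its few samples. Its use on array values with a background level is a choice made here. With 1 array per tissue the number of arrays limits the precision, and no p-value is given. The members and gene lists were chosen with earlier results of these data known. All members were named, and of each other list up to 4 genes past 3-fold. Markers, neighbours, genes just under the rule and some other uncalled genes were also named, after their values were seen. Alternatives were other background levels and folds, no floor, other scalings and other choices of probe set. The procedure was tested on simulated data with starting levels well above background and changes well past 3-fold. Genes at background in both tissues and changes near 3-fold were not tried. Analyses used Python 3.11.15, numpy 2.4.6, pandas 2.3.3 and matplotlib 3.10.9.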

Additional observations from a re-analysis of the deposited data

How the results depend on the processing

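No paired analysis was possible because each tissue had 1 array. Car1 and Car2 stayed past 3-fold in favour of the colon under all 10 alternatives, with differences of 9.49 to 12.63 and 5.19 to 5.44 under those that keep the fold. The count of carbonic anhydrase genes higher in the colon was 3 at a fold of 5, which Car4 and Car8 did not reach. The count higher in the small intestine was 1 (Car13) after quantile normalization, after centring on hybridization spike-ins and at a fold of 2. The median difference was 0.64 with the median over probe sets and 2.20 without probe sets marked _x, _s or _a, where 9 genes were left because Car14 has no other. Over all genes, 395 favoured the colon and 447 the small intestine with the median over probe sets, compared with 605 for the colon and 629 for the small intestine as reported, 1481 for the colon and 1265 for the small intestine at a fold of 2, and 260 for the colon and 309 for the small intestine at a fold of 5. Spike-in centring lowers a difference by 0.25 where both tissues stay above background, and by less where 1 or both do not. Of the counts of the other lists under the alternatives, 308 stayed within 1.5 times and 32 did not. The 308 include many counts of 0 that stayed 0, so they say little about how stable the other counts were. Signal near background limits Car7 and Car14.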

Other observations

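Genes of monocarboxylate transport were also measured, among them carriers that move lactate or butyrate together with protons or sodium. Of 9 genes, 1 favoured the colon and 2 the small intestine, and the median was 0.17. The list also holds genes that are not such carriers, such as Bsg, whose difference is the median. Slc5a8, a sodium-coupled carrier of the colon, had 12.19 in the colon, against 9.88 in the small intestine (4.98-fold). Slc5a12, its low-affinity relative, had 3.12 in the colon, against 11.64 in the small intestine (at least 99.7-fold in favour of the small intestine), and Slc16a5 was 3.45-fold higher in the same tissue. The proton-coupled carrier Slc16a1 had 12.90 in the colon, against 11.33 in the small intestine, just under 3-fold.

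Of 15 genes of the response to low oxygen, the pathway that includes Car9, 2 favoured the colon and 0 the small intestine, and the median was 0.54. The glucose transporter Slc2a1 had 11.94 in the colon, against 8.92 in the small intestine (8.08-fold). The hexokinase Hk2 had 10.47 in the colon, against 8.88 in the small intestine, a difference of 1.59 that lies at the rule itself. Vegfa, a target of the same factor, had 7.44 in the colon, against 7.38 in the small intestine.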
